A study of Mus musculus with 8 samples.

Results

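The E2F transcription factors and the pocket proteins that bind them were followed in primary mouse hepatic stellate cells that had become myofibroblastic (pMF-HSCs), after inhibition of O-GlcNAc transferase (OGT). The genes were taken by name. They comprised 7 E2F genes (E2f1, E2f2, E2f3, E2f4, E2f5, E2f7 and E2f8) and 3 pocket protein genes (Rb1, Rbl1 and Rbl2), 10 of the 40840 genes in the tables. Hepatic stellate cells, which store vitamin A and turn into matrix-producing myofibroblasts in culture, came from wild-type male C57BL/6J mice aged 15 to 18 weeks and had been sorted before culture. The control group (n = 4) received DMSO, and the OGTi group (n = 4) received 50 µM OSMI-1, an inhibitor of the enzyme that attaches the sugar O-GlcNAc to proteins. Both groups were cultured for 7 days and treated for 24 h, and libraries of the same replicate number were paired. No genetic change separates the groups, so the comparison is of 1 inhibitor at 1 dose and 1 time.

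E2F factors bind DNA at the promoters of genes needed to enter and pass S phase. E2F1 to E2F3 are the classical activators. E2F4 and E2F5 mostly repress together with the pocket proteins p107 (Rbl1) and p130 (Rbl2), while RB (Rb1) holds the activators in check. E2F7 and E2F8 are atypical members that bind DNA without a DP partner or a pocket protein, repress E2F targets, and are themselves transcribed late in G1 and in S phase as E2F targets. When cells leave the cycle, p130 or p107 joins E2F4, a DP protein and the MuvB core in the DREAM complex, which represses both G1/S and G2/M genes. Phosphorylation by cyclin-dependent kinases releases pocket proteins from E2Fs.

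RefSeq promoters were at hand for 7 of the 10 genes. The upstream stretch of 250 bases is shown for the 3 genes that changed, E2f8, E2f7 and Rbl1, and for the first of the starts of E2f3, which did not pass the test but holds both motifs searched. Each is written 5′ to 3′ on the strand of its gene and ends at the base before the annotated start. Capitals mark a match, on either strand, to an E2F motif (TTTCGCGC, TTTGCCGC, TTTCCCGC or TTTGGCGC) or to a CHR, the element read by MuvB (TTTGAA or TTCGAA). The positions are on GRCm38.p6: chr7:48881597-48881846 on the minus strand for E2f8, chr10:110745189-110745438 on the plus strand for E2f7, chr2:157204535-157204784 on the minus strand for Rbl1 and chr13:29986064-29986313 on the minus strand for E2f3.
E2f8: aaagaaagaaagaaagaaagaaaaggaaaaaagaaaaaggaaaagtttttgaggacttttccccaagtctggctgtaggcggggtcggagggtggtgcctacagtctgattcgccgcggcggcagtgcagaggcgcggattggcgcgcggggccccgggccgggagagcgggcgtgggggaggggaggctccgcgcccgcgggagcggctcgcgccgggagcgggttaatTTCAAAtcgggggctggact
E2f7: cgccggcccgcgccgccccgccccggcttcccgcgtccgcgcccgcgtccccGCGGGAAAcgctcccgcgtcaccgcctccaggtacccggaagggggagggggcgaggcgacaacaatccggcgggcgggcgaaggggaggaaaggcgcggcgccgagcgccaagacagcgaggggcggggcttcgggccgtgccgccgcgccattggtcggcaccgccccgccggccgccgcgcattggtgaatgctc
Rbl1: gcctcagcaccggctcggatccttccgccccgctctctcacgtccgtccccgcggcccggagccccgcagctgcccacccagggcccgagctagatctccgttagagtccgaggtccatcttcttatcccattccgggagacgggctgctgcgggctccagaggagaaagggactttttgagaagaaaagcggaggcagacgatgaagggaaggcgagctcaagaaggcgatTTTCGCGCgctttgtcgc
E2f3: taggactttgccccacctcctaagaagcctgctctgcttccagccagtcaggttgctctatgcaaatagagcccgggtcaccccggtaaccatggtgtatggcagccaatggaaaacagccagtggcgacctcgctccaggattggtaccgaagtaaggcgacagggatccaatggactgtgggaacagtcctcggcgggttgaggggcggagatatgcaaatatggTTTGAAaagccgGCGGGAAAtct

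Counted from the start, the E2F matches began at -198 in E2f7, at -18 in Rbl1 and at -11 in E2f3, and the CHR matches at -20 in E2f8 and at -23 in E2f3. None of these matches overlapped another. The E2F letters occurred in 1.86% and the CHR letters in 17.1% of the 32851 mouse promoters of this length. Further CHR matches lay at -201 in Rbl2 and at -31 before the second start of E2f2. No match lay before the start used for E2f1, the first start of E2f2 or the second start of E2f3. The start used for E2f1 may be a downstream one. A match is a run of letters and not a shown binding site.

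The libraries held between 30068876 and 37372420 expected counts each. A count was present for 19035 to 20293 genes in 7 libraries and for 23746 in OGTi replicate 4. All 9 stellate and myofibroblast markers were detected in both groups, with a summed level of 7193.65 to 14412.61 TPM (a level per length and depth) in control and 5752.53 to 14885.73 TPM in OGTi. Dcn, Acta2 and Tagln carried most of this sum. Of the 9, 4 were lower in every OGTi library than in any control library, namely Pdgfrb (56.26 to 170.8 TPM in control, 10.86 to 37.39 in OGTi), Des (121.59 to 147.18, 62.67 to 116.24), Lrat (6.51 to 17.96, at most 2.94) and Hand2 (10.67 to 15.06, 3.91 to 7.86). Of other cell types, the 7 macrophage markers summed to 61.97 to 184.24 and 92.65 to 231.92 TPM, the 4 cholangiocyte markers to 87.25 to 140.63 and 57.17 to 84.1 TPM, the 7 endothelial markers to 1.52 to 2.99 and 0.32 to 0.98 TPM, the 8 hepatocyte markers to 0.11 to 0.59 and 0.57 to 1.69 TPM, and the 4 lymphocyte markers to at most 0.78 and 0.54 TPM. The hepatocyte factor Hnf4a was at 0 in all libraries. Among the macrophage markers Cd68 and Lyz2 carried most of the sum, while Adgre1 was at most 0.96 TPM and Clec4f at most 0.27 TPM, and among the cholangiocyte markers Krt19 carried most. Every OGTi library was below every control library in the endothelial and cholangiocyte sums. The cholangiocyte difference lay in Krt19, whereas Sox9 was higher in every OGTi library (0.42 to 1.96 TPM in control, 3.03 to 22.85 in OGTi) and Epcam and Krt7 overlapped. The part of these markers in the results was not tested. OGTi replicate 1 stood apart by gene length. Against the other OGTi libraries, its median log2 difference was 0.59 for the shortest quintile of genes and -0.48 for the longest, which starts at an effective length of 4832.23 bases.

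OGTi lowered 3 of the 10 genes, E2f8, E2f7 and Rbl1, and raised none. Across all 19963 genes tested, 18.4% passed the edgeR test (adjusted p no higher than 0.05), 10.2% as lower and 8.13% as higher in OGTi. This balance depended on the scaling, with 2043 genes lower and 1623 higher as fitted, 1732 and 2051 with upper-quartile scaling, and 2911 and 1256 with library totals alone. The median log2 fold change of the 10 genes was -0.65, against 0.01 for all genes tested. The control and OGTi libraries did not overlap, with OGTi lower, in 2 of the 10 (E2f8 and Rbl1) and in 12.0% of all genes. In bulk RNA, fewer cells that express a gene cannot be told apart from less of its RNA per cell.

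**Figure D1:**
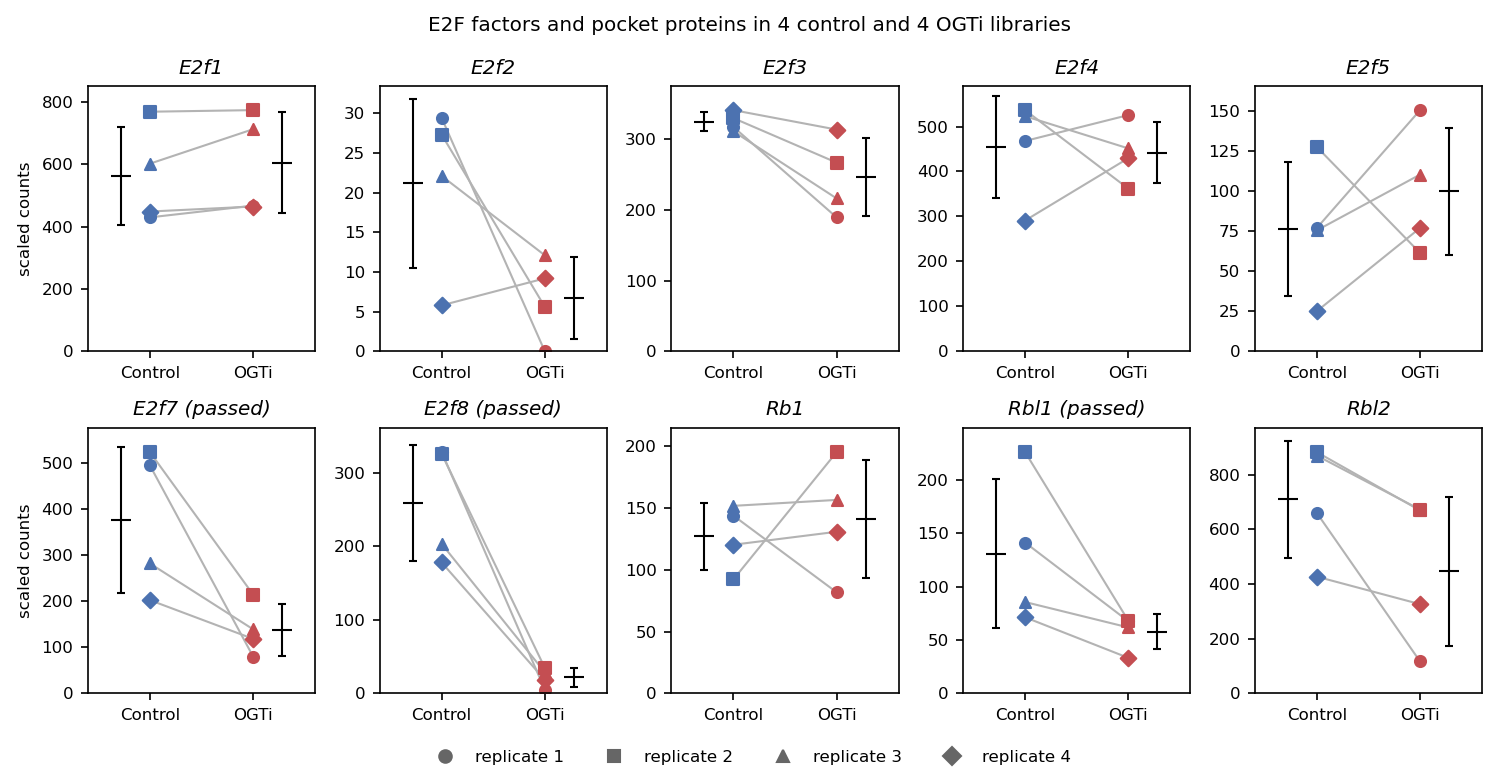
Scaled counts (counts adjusted to a common library size, y axis from 0) of the 10 genes in the control (blue) and OGTi (red) cultures, with a grey line joining each pair and the mean ± SD (n = 4) in black. E2f8 lies between 178.2 and 328.4 in control and between 5.1 and 34.6 in OGTi, whereas the E2f1 pairs run nearly level.

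E2f8, an atypical repressor (chr7:48516176-48531452, minus strand, GRCm39), showed the largest decrease of the 10. Its scaled counts were 328.4, 326.3, 203.5 and 178.2 in control replicates 1 to 4, and 5.1, 34.6, 28.7 and 18.4 in OGTi replicates 1 to 4. Every OGTi library lay far below every control library. The log2 fold change was -3.65 ± 0.48 (SE, edgeR adjusted p = 0.00100), a 12.6-fold decrease, and the pairs differed by -5.54, -3.16, -2.74 and -3.14 on the log2 scale. The gene passed in each of the 13 alternative fits, with log2 fold changes of -1.90 to -3.98.

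E2f7, the other atypical repressor (chr10:110581300-110623245, plus strand), fell 2.66-fold. Control replicates held 494.4, 523.2, 281.8 and 202.3 scaled counts, and OGTi replicates 79.9, 214.4, 139.0 and 118.3. All 4 pairs were lower in OGTi, with log2 differences of -2.60, -1.28, -1.01 and -0.76, but the groups overlapped, since OGTi replicate 2 lay above control replicate 4. The log2 fold change was -1.41 ± 0.33 (SE, edgeR adjusted p = 0.0150). It was -1.43 with an adjusted p of 0.0519 when replicate 2 was left out, and -1.03 when replicate 1 was. The effective length of E2f7 was 5448 bases, within the longest quintile, in which OGTi replicate 1 was low. With the length trend removed the log2 fold change was -1.16 (edgeR adjusted p = 0.0190).

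Of the activators, E2f1 (chr2:154401326-154411812, minus strand), a central driver of S phase genes, kept nearly the same level within each pair. It held 429.3, 767.7, 601.3 and 448.0 scaled counts in control and 467.0, 772.8, 711.7 and 464.1 in OGTi. The cultures differed more between replicate numbers than between treatments, and the log2 fold change was 0.11 ± 0.21 (SE, edgeR adjusted p = 0.784). On TPM and with library totals alone its sign turned, to between -0.22 and -0.09, without passing the test.

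E2f3 (chr13:30090558-30170046, minus strand), an activator with alternative starts, was lower in each pair but did not pass. It held 317.4, 329.8, 311.2 and 341.1 scaled counts in control and 189.5, 266.9, 216.3 and 313.6 in OGTi. OGTi replicate 4 lay above control replicate 3, and the log2 fold change was -0.42 ± 0.24 (SE, edgeR adjusted p = 0.250). In TPM it ran from 2.48 to 2.62 in control and from 1.01 to 2.06 in OGTi. It did not pass there either (limma adjusted p = 0.104 on log2(TPM + 1) and 0.116 on log2(TPM + 0.1)). At an effective length of 6307.56 bases E2f3 was the longest of the 10, and with the trend on length removed its log2 fold change was -0.18.

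E2f2 (chr4:135899585-135923368, plus strand), the third activator, was close to the limit of detection. Its scaled counts were 29.4, 27.3, 22.1 and 5.8 in control and 0.0, 5.6, 12.1 and 9.2 in OGTi. A count of 0 in OGTi replicate 1 allows up to 3 counts, or 3.07 scaled counts. The groups overlapped through control replicate 4, and the fitted difference of -1.69 ± 0.96 (log2, SE, edgeR adjusted p = 0.261) is imprecise. It was -0.86 without replicate 1 and -2.44 without replicate 4, and did not pass in either.

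E2f4 (chr8:106024243-106032003, plus strand), the main E2F of quiescent cells, had the highest mean TPM of the 10 and did not move in one direction. It held 467.8, 536.4, 523.0 and 291.0 scaled counts in control and 525.4, 361.8, 451.3 and 429.6 in OGTi. The log2 fold change was -0.01 ± 0.25 (SE, edgeR adjusted p = 0.979), with 2 pairs lower and its sign dependent on the scaling. E2f5 (chr3:14643676-14672404, plus strand), its close relative, held 77.0, 127.5, 75.5 and 25.1 scaled counts in control and 150.5, 61.4, 110.3 and 77.0 in OGTi. Its value was higher in 3 pairs and lower in the second, and the log2 fold change of 0.52 ± 0.43 (SE) did not pass (edgeR adjusted p = 0.457) and was -0.05 on TPM.

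**Figure D2:**
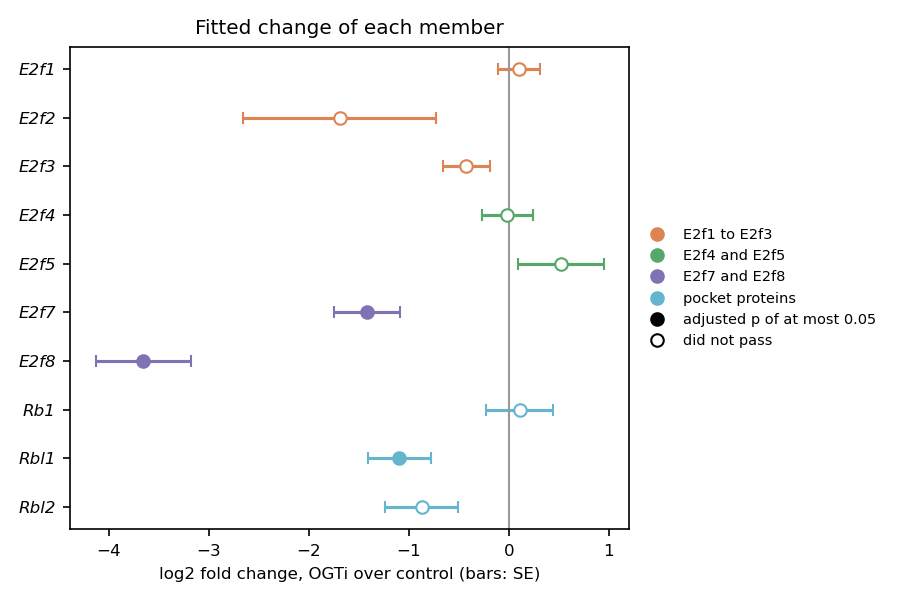
Log2 fold change (OGTi over control, x axis) of each gene with its SE from the paired edgeR fit, n = 4 pairs, coloured by class, filled where the adjusted p was at most 0.05. E2f8 lies farthest to the left at -3.65, E2f7 and Rbl1 follow among those that passed, and E2f1, E2f4 and Rb1 sit within 0.11 of 0 (E2f1, E2f4, E2f5 and Rb1 change sign under some scalings or TPM).

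Among the pocket proteins, Rbl1 (p107; chr2:156987813-157046475, minus strand) fell 2.13-fold. It held 141.3, 226.0, 85.6 and 71.3 scaled counts in control and 67.6, 68.1, 61.8 and 33.3 in OGTi. The groups did not overlap, but the highest OGTi library lay only just below the lowest control library, at 68.1 against 71.3. The log2 fold change was -1.09 ± 0.32 (SE, edgeR adjusted p = 0.0375), with all 4 pairs lower. This call was the least stable of the 3. It was lost without the replicate block (adjusted p = 0.0823), with upper-quartile scaling (0.0609), with the length trend removed (0.0919) and when any 1 replicate was left out (0.0614 to 0.152).

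Rbl2 (p130; chr8:91796664-91850492, plus strand), the pocket protein of quiescent cells, held 659.5, 882.0, 869.2 and 426.8 scaled counts in control and 116.8, 668.9, 672.0 and 326.2 in OGTi. Each OGTi library was below its control partner, with a log2 difference of -2.48 in the first pair and of -0.37 to -0.40 in the others. The log2 fold change was -0.87 ± 0.36 (SE, edgeR adjusted p = 0.130), and -0.38 without replicate 1, which is the OGTi library that was low in long transcripts. The effective length of Rbl2 was 4640.7 bases, and with the length trend removed the log2 fold change was -0.61. Rb1 (chr14:73421113-73563507, minus strand), the retinoblastoma gene, held 144.0, 92.3, 151.9 and 120.4 scaled counts in control and 81.9, 195.4, 156.7 and 130.9 in OGTi. It was lower in the first pair and higher in the other 3, with a log2 fold change of 0.11 ± 0.33 (SE, edgeR adjusted p = 0.865) whose sign depended on the scaling.

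Levels of different genes can be compared only per length, in TPM. In control, the order of mean TPM was E2f4 (12.6, with a range over the 4 libraries of 8.09 to 14.81), E2f1 (11.0, 8.31 to 14.87), Rbl2 (7.45, 4.50 to 9.33), E2f8 (3.80, 2.63 to 4.78), E2f7 (3.34, 1.82 to 4.61), E2f3 (2.53, 2.48 to 2.62), Rbl1 (1.79, 0.96 to 3.21), E2f5 (1.54, 0.59 to 2.50), Rb1 (1.43, 0.99 to 1.79) and E2f2 (0.25, 0.07 to 0.35). The ranges of neighbours in this order overlapped, except those of Rb1 and E2f2. In OGTi the first 3 places were held by the same genes, E2f4 (9.68 ± 0.33, SD, n = 4), E2f1 (9.66 ± 3.48) and Rbl2 (3.92 ± 2.57), and each pair of neighbours overlapped. E2f8 moved from the fourth place to the ninth, at 0.27 ± 0.18 TPM, and E2f7 from the fifth to the seventh, at 1.02 ± 0.53 TPM.

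The make-up of the E2F pool by TPM is a description of these libraries. The summed TPM of the 7 E2F genes was 35.1 ± 8.17 in control and 23.6 ± 3.95 in OGTi (SD, n = 4). The ranges overlapped, at 24.52 to 44.32 and 19.72 to 28.31. Within each pair the sum was lower in OGTi (34.62 to 19.72, 44.32 to 28.31, 36.79 to 25.43 and 24.52 to 21.09). TPM placed more of all genes lower in OGTi than the main fit did. On log2(TPM + 1), 3456 genes were lower and 1195 higher, against 2043 and 1623 as fitted. E2f1 and E2f4, the highest of the 7, did not pass on TPM either. The sums themselves were not tested. E2f7 and E2f8 together held 20.2% ± 4.74 of the summed TPM in control (15.3 to 26.4% by library) and 5.22% ± 2.08 in OGTi (2.74 to 7.84%), with no overlap. The activators E2f1 to E2f3 held 39.8% ± 5.85 and 46.6% ± 8.36, and E2f4 with E2f5 held 40.0% ± 3.80 and 48.1% ± 10.4, both with overlapping ranges. The ratio between the 2 atypical genes did not overlap between the groups. E2f8 had 1.03 to 1.45 times the TPM of E2f7 in the control libraries and 0.102 to 0.337 times in the OGTi libraries. These shares restate the levels above and were not tested separately.

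The 3 pocket protein genes summed to 10.7 ± 2.88 TPM in control and 5.93 ± 3.31 TPM in OGTi, with overlapping ranges (6.82 to 13.34 and 2.12 to 9.42). This sum, too, was lower in OGTi within each pair (10.16 to 2.12, 13.34 to 9.42, 12.33 to 7.83 and 6.82 to 4.35). It was not tested. Rbl2 held most of this sum in control, 69.4% ± 4.32, and 60.9% ± 14.5 in OGTi, where OGTi replicate 1 had the lowest share at 39.6%. Rbl1 held 16.3% ± 6.01 and 14.8% ± 10.9, and Rb1 14.3% ± 5.17 and 24.3% ± 4.76. The shares of all 3 overlapped between groups. Within pairs, the Rb1 share was higher in OGTi each time (15.4 to 29.2%, 7.42 to 21.8%, 14.5 to 18.9% and 19.9 to 27.1%). The Rbl2 share was lower in each pair, though barely in the second (68.5 to 68.4%), and the Rbl1 share went both ways.

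**Figure D3:**
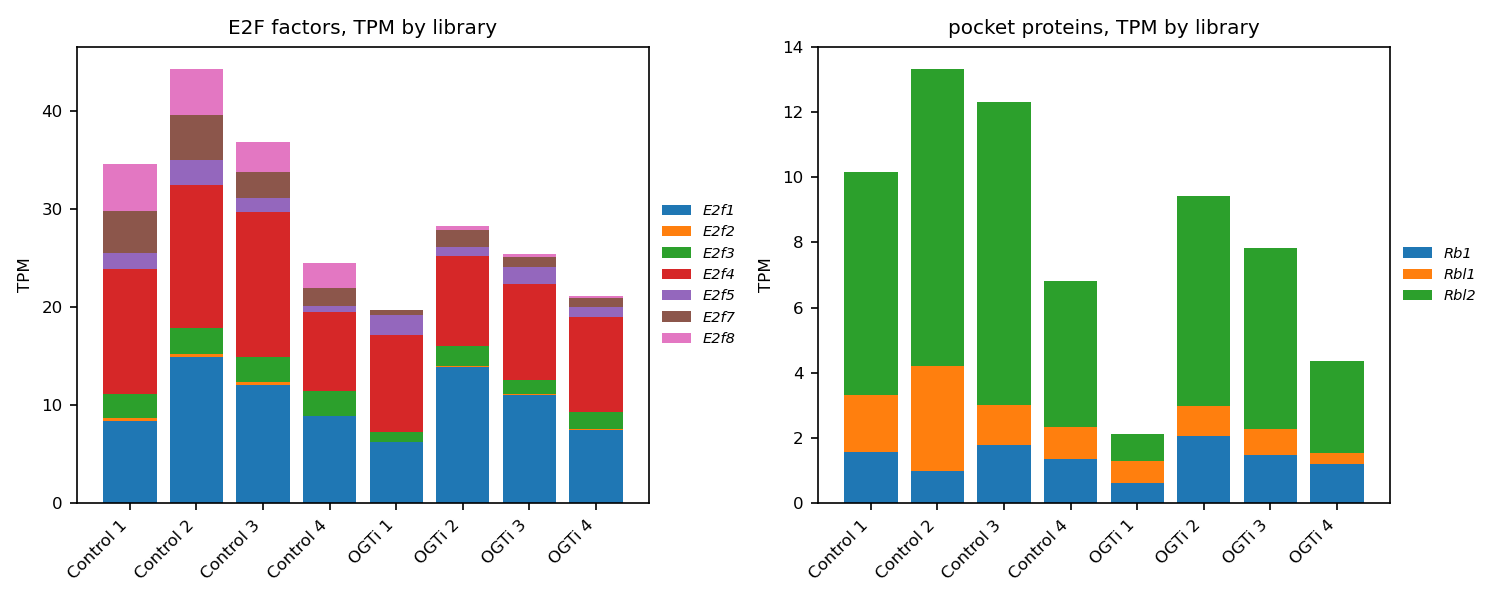
TPM (y axis, stacked from 0) of the 7 E2F genes on the left and the 3 pocket protein genes on the right in each library. The E2f7 and E2f8 segments are 15.3 to 26.4% of the E2F bars in control and 2.74 to 7.84% in OGTi, and Rbl2 makes up most of the pocket protein bars except in OGTi replicate 1.

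Of the partners of the E2Fs, Tfdp1, the DP1 subunit with which typical E2Fs bind DNA, fell from 1497.9, 1659.4, 1135.4 and 1289.1 to 490.6, 571.8, 509.8 and 607.6 scaled counts. The groups lay well apart, with a log2 fold change of -1.35 ± 0.22 (SE, edgeR adjusted p = 0.00281). Tfdp2, the alternative DP subunit, had a log2 fold change of -0.06 (adjusted p = 0.911), and E2f6, a repressor that works without pocket proteins, one of 0.42 (adjusted p = 0.198).

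Among 9 subunits and partners of MuvB and DREAM, 4 fell, 1 rose and 4 did not pass, with a median log2 fold change of -0.28. Lin9, a subunit of the MuvB core, fell most, from 201.7 to 330.2 scaled counts in control to 14.9 to 103.9 in OGTi (log2 fold change -2.85 ± 0.46, SE, edgeR adjusted p = 0.00272). Foxm1, Mybl2 and Mybl1, which encode FOXM1, B-MYB and A-MYB, activators of late cell cycle genes, also fell, by 3.07-, 2.56- and 2.23-fold, whereas Dyrk1a, the kinase that promotes DREAM assembly, rose 1.76-fold. These 4 calls were lost without the replicate block (adjusted p = 0.102, 0.101, 0.0724 and 0.0674 in that order). Leaving out 1 replicate also ended them, for Foxm1 without replicate 3 or 4 (0.0508 and 0.0511), for Mybl2 and Mybl1 when any 1 of the 4 was dropped (0.0593 to 0.0879 and 0.0525 to 0.117) and for Dyrk1a without replicate 2, 3 or 4 (0.0928 or more). Dyrk1a also missed the threshold with library totals alone (log2 fold change 0.62, adjusted p = 0.0990) and with log2(TPM + 1) and log2(TPM + 0.1) (0.42 and 0.48, adjusted p = 0.256 and 0.243). Mybl1 also missed it with the low-count filter filterByExpr (edgeR adjusted p = 0.0539) and with the length trend removed (0.0507). With limma on log2(TPM + 0.1) its adjusted p was 0.0507. Lin9 passed in all 13 alternative fits. The other subunits gave 0.75 for Lin52 (adjusted p = 0.0717), 0.50 for Lin37, 0.15 for Lin54 and -0.28 for Rbbp4.

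Of 10 genes, the cyclins and kinases that act on pocket proteins and the phosphatase Cdc25a, 6 fell and none rose, with a median of -1.08. Ccnd1 (log2 fold change -2.22), Ccne2 (-2.20), Ccna2 (-1.83), Cdk2 (-1.48) and Ccnd2 (-0.96) passed in all 13 alternative fits. Cdk6 (-0.76) was lost without the block (edgeR adjusted p = 0.0826) and without replicate 2, 3 or 4 (0.0649 to 0.212). It was also lost with upper-quartile scaling (0.0921) and with the length trend removed (0.0665). Ccne1 (cyclin E1) held 1337.9 to 2697.1 scaled counts in control replicates 1 to 3 but 83.8 in replicate 4. Replicate 4 was also the only pair higher in OGTi, at 227.4 scaled counts and a log2 difference of 1.42. The log2 fold change of Ccne1 was -1.20, which did not pass, and -1.88 (edgeR adjusted p = 0.00577) without that contrary pair. Ccne1 passed in 2 of the 13 alternative fits.

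Of 7 CDK inhibitors, Cdkn1a (p21) rose, with a log2 fold change of 0.66 ± 0.18 (SE, edgeR adjusted p = 0.0297), from 43535.1 to 70080.4 scaled counts in control to 62762.1 to 104261.9 in OGTi. The groups overlapped, and the call was lost without the block (adjusted p = 0.0690), with library totals alone (0.0851) and without replicate 2, 3 or 4 (0.0518 to 0.102). It was also lost with limma on log2(TPM + 1) and log2(TPM + 0.1) (adjusted p = 0.112 and 0.101). Cdkn2d (p19) fell (-0.87, edgeR adjusted p = 0.0240). It did not pass when replicate 2, 3 or 4 was left out (0.0820 to 0.140) or with upper-quartile scaling (0.0524). Cdkn1b (p27) had -0.62 (adjusted p = 0.146). Cdkn2a was at 3.5 scaled counts or fewer in each library.

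Of 10 corepressors that pocket proteins recruit, 3 fell and none rose, with a median of -0.23. They were Sin3a (-1.50), Suv39h1, a histone H3 methyltransferase (-1.31), and Smarca4, an ATPase of chromatin remodellers (-0.75), of which Smarca4 was lost in 5 of the 13 fits, among them those without replicate 2, 3 or 4 (adjusted p = 0.0608 to 0.127). The histone deacetylases Hdac1 and Hdac2 had log2 fold changes of -0.16 and 0.34 and did not pass. Of 5 genes in the turnover of E2Fs and p27, 3 fell: Fbxo5, an inhibitor of the anaphase-promoting complex (-3.18), the ubiquitin ligase subunit Skp2 (-1.70) and its cofactor Cks1b (-1.47). Ccnf, whose product marks E2F proteins for destruction, had 0.38 (adjusted p = 0.489).

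The textbook targets of these factors were mostly lower. Of 38 G1/S genes that E2Fs activate, 29 fell, none rose and 9 did not pass, with a median log2 fold change of -1.68. The 3 of lowest p were Mcm5 (-2.34 ± 0.23, SE) and Mcm3 (-2.18 ± 0.25), subunits of the replicative helicase, and Tk1 (-2.95 ± 0.35), thymidine kinase. Those that did not pass lay between -1.19 and 0.33. Among them, named after their values were seen, were Pcna, the sliding clamp (0.25, edgeR adjusted p = 0.445), and Cdt1, a licensing factor (0.33, adjusted p = 0.564). Of 36 G2/M genes bound by DREAM, 30 fell, none rose and 6 did not pass, with a median of -2.05. The 3 of lowest p were the mitotic cyclin Ccnb1 (-3.46 ± 0.28, SE), the ubiquitin-conjugating enzyme Ube2c (-3.07 ± 0.25) and the kinase Plk1 (-3.20 ± 0.26). E2f1 itself, E2f4 and Rb1 did not pass in the same libraries.

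Among genes linked to apoptosis that E2F1 is known to activate, Bcl2l11 (BIM) rose, with a log2 fold change of 1.72 ± 0.25 (SE, edgeR adjusted p = 0.00156). Bbc3 (PUMA) had 0.85 (adjusted p = 0.121) and Apaf1 -0.25 (adjusted p = 0.624), and neither passed. Trp73 was below the count minimum.

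**Figure D4:**
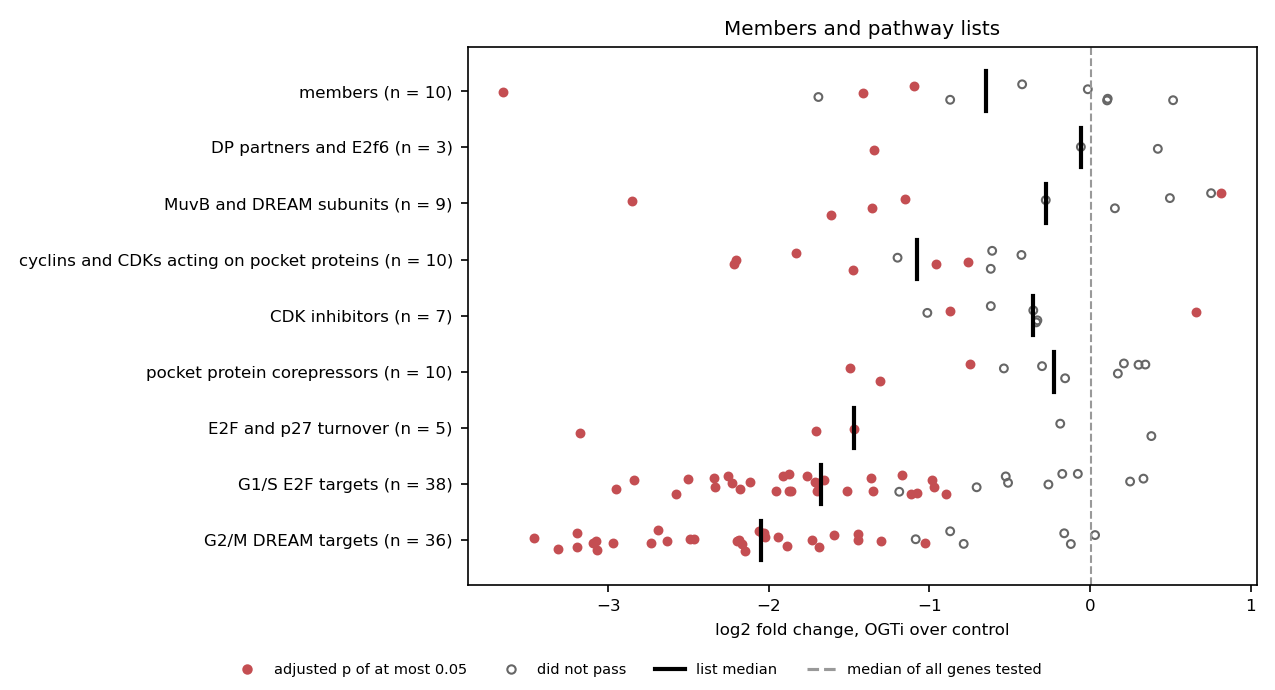
Log2 fold change (OGTi over control, x axis) of each tested gene of the 10 genes and 8 pathway lists (rows, with the number tested), filled red where the edgeR adjusted p was at most 0.05, with a black bar at each median and a dashed line at 0.01, the median of all genes. The G1/S and G2/M targets lie mostly left of -1, with medians of -1.68 and -2.05. The cyclin and CDK list lies wholly left of 0, from -2.22 to -0.43 with a median of -1.08, while the remaining lists hold genes on both sides of 0.

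The genes whose levels across the 8 libraries were most like those of each changed member were found by Pearson's r on log2 CPM among 12525 genes. For E2f7 they were Ccne2 (0.985), Mki67 (0.980) and Kif4 (0.975). For E2f8 they were Olfr456 (0.993), Setmar (0.992) and Coro1c (0.991), and for Rbl1 they were Poc1a (0.980), Hsd17b4 (0.969) and Fen1 (0.966). The 8 libraries share 2 treatments, so genes that differ between them tend to correlate with these 3, and the values are a description. Hsd17b4 itself did not pass (log2 fold change -0.23, edgeR adjusted p = 0.459).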

How the data were processed

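RNA was sequenced from 8 cultures of pMF-HSCs, 4 treated with vehicle and 4 with OSMI-1, and the titles gave each sample's group and number. Per the labels, the authors prepared stranded libraries after oligo dT enrichment, aligned the reads with Bowtie2 2.3.5.1 to mm39 and quantified genes with RSEM 1.3.1. The deposited tables hold, per library, an expected count for each gene, which is an RSEM estimate and can be fractional, as well as TPM, an abundance per length and per depth. The effective length of each gene is deposited beside them. The methods name a GENCODE annotation, while the transcript identifiers in the tables are RefSeq ones. A comparison table of the authors, holding counts, normalized counts, DESeq2 1.36.0 fold changes and p-values, was not used, and its 16 columns of per-sample values were left aside.

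The expected counts, rounded to integers, entered edgeR 4.0.16 (R 4.3.3) with TMM scaling and a quasi-likelihood test (glmQLFit, glmQLFTest) that had the replicate number as a block. Pairing of treated with control samples by replicate is stated in the study's methods. Across genes, the deviations of same-numbered libraries from their group means correlated at 0.160, 0.224, 0.105 and 0.318 for replicates 1 to 4, and those of differently numbered libraries between -0.312 and 0.208. The 19963 genes with a total of at least 10 counts were tested, and Benjamini-Hochberg adjustment ran over the whole table. A gene was called changed at an adjusted p of at most 0.05. Scaled counts are the counts brought to a common library size, the mean of the TMM-adjusted sizes. The fits were tested on simulated data. DESeq2 1.42.0, limma 3.58.1 on log2(TPM + 1) and log2(TPM + 0.1), and other scalings and filters were the alternatives, together with fits that removed a trend on gene length, dropped the block or left out each replicate in turn. Library totals were 30068876 to 37372420 expected counts. The SE of a fold change was derived from the quasi-likelihood F of the blocked fit, whose dispersion is moderated across genes. It reflects the spread of the differences within pairs as well as counting. The limit given for a count of 0 covers counting error only.

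The members and gene lists were chosen with earlier results of these data known. All members are named, and genes of lists of up to 10 genes may be, except that 1 result is not reported here. Of longer lists the 3 called genes of lowest p in each direction are named, and any called against the direction of the rest. For each called member, the 3 genes of highest Pearson correlation with it are named, among genes with a mean of at least 1 CPM. Promoter sequences came from RefSeq (GRCm38.p6), and gene positions from GENCODE on GRCm39, the assembly that mm39 denotes.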

Additional observations from a re-analysis of the deposited data

Results flagged for a closer look

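In 5 of 98 groups of 4 libraries, 1 library stood apart from the other 3 by Dixon's criterion, close to the 4.9 that chance gives. None of the 20 groups of the E2F and pocket protein genes was among them. In scaled counts, Foxm1 reached 125.1 in OGTi replicate 2 and lay between 24.3 and 41.0 in the remaining OGTi libraries, and Mcm3 was 1344.5 in the same library against 382.5 to 536.6. Cdk2 was 622.6 in OGTi replicate 4 against 913.5 to 960.0, and Bbc3 was 63.2 there against 80.4 to 81.7. Cdk4 was 9150.5 in OGTi replicate 1 against 6710.4 to 7043.6.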

How the results depend on the processing

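Over 13 alternative fits, E2f8 passed in 13, E2f7 in 12, Rbl1 in 6 and Rbl2 in 1 (no low-count filter, adjusted p = 0.0313), and the other 6 genes in none. With no replicate block, 2991 genes and 2 of the 10 genes were changed, against 3666 and 3 with it, and MuvB and DREAM genes lower went from 4 to 1. At an adjusted p of at most 0.01, 1668 genes and 1 of the 10 were changed. Leaving out 1 replicate gave 1905 to 3124 changed genes and 1 to 2 of the 10, the lowest without replicate 3 and without replicate 2, respectively. Between 22 and 32 G1/S targets and between 28 and 32 G2/M targets were lower in all alternatives. Of 29 members and cell cycle genes named that passed, 19 did so in all 13 fits, 7 were lost with no replicate block and 10 without at least 1 replicate. Signs turned only for genes that did not pass. E2f1 was -0.088 with library totals alone, -0.20 with log2(TPM + 1) and -0.22 with log2(TPM + 0.1). E2f4 was 0.034 with DESeq2, 0.11 with upper-quartile scaling, 0.024 with filterByExpr and -0.19 to 0.20 without 1 replicate. E2f5 was -0.052 and -0.049 on the TPM scales. Rb1 was -0.088 with library totals alone, -0.082 and -0.17 on the TPM scales and -0.18 to 0.41 without 1 replicate. Tfdp2 was 0.069 with upper-quartile scaling, 0.17 with the length trend removed and -0.30 to 0.093 without 1 replicate. Over all genes, the median log2 fold change was 0.13 with upper-quartile scaling, -0.19 with library totals alone and -0.23 with log2(TPM + 0.1), against 0.01. On the TPM scales, 3456 and 3473 genes were lower and 1195 and 1236 higher, and with the length trend removed 1958 and 2119. Causes were not tested. With about 6 counts or fewer in some libraries, E2f2 could not be measured precisely.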
